A study of Mus musculus with 6 samples.

Results

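The myeloid C-type lectin receptors are transmembrane proteins with which macrophages, dendritic cells and neutrophils bind sugars and lipids of fungi, bacteria and damaged cells. Transcripts of 9 of these receptors and of Card9, the adaptor of the activating ones, were followed in J774 macrophages after depletion of NCOA4. The 10 genes were chosen by name, with earlier results of these data known. They are myeloid lectins of the dectin gene clusters, Clec5a, which lies apart from these clusters, and Card9. Other lectins of the clusters, such as Clec4a4, are not among them. All 10 were found among the 55487 gene identifiers of the files.

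Several of these receptors start the same signalling route. Dectin-1 (Clec7a) carries its own activating motif in the cytoplasmic tail, whereas dectin-2 (Clec4n), MCL (Clec4d) and Mincle (Clec4e) pair with the Fc receptor gamma chain (Fcer1g) and MDL-1 (Clec5a) pairs with DAP12 (Tyrobp). All of them recruit the kinase SYK, and SYK acts through PKCδ on the CARD9, BCL10 and MALT1 complex to activate NF-κB. DCIR (Clec4a2) and MICL (Clec12a) carry an inhibitory motif that recruits phosphatases, and Clec4a1 and Clec4a3 encode close relatives of DCIR.

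J774 is a mouse macrophage cell line (clone E in the study's methods). Liposomes delivered either a negative control siRNA or an siRNA against NCOA4, the cargo receptor that brings ferritin to lysosomes, and stranded mRNA libraries were made from 3 biological replicates per siRNA. All 6 libraries come from 1 line, with 1 NCOA4 siRNA and 1 control siRNA, so effects of NCOA4 loss and of that siRNA sequence cannot be told apart. The time between transfection and RNA isolation is not given in the sources used here.

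Reads on genes, rebuilt from the deposited TPM (transcripts per gene, corrected for length and scaled to 1000000 in each library), numbered 15726659 to 18547293 per library. Ncoa4 itself was at 19.7, 22.5 and 22.4 TPM in the control libraries and at 9.63, 8.60 and 8.88 TPM in the NCOA4 siRNA libraries (-1.21 ± 0.0767 on the log2 scale, limma adjusted p = 0.00127). Control siRNA replicate 1 stood apart from the other controls, with a chi-square per gene of 11.8 against each of them, compared with 3.62 between those other controls and at most 2.38 between NCOA4 siRNA libraries. A gene is called differentially expressed below at an adjusted p under 0.05 (limma, Benjamini-Hochberg over 13829 tested genes) and a fold change above 1.5, and "rose" and "fell" are used of adjusted p under 0.05. Of all tested genes 1.18% were differentially expressed, 0.861% higher and 0.318% lower, so 73.0% of these genes were higher, a share that was 60.7% after median centring and 61.9% after quantile normalization. All 10 macrophage marker genes were detected, among them Adgre1, Csf1r and Lyz2. Of the lists for other cells, the dendritic cell list had 2 of 8 genes at a mean of at least 0.5 TPM, the neutrophil list 1 of 8, and the T cell, B cell and fibroblast lists 0 genes, with Cd3e and Col1a2 at 0 in every library.

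Except for Card9, on chromosome 2 from 26352176 to 26360918, the genes lie on chromosome 6 (GRCm38, GENCODE M21). Clec4a1, Clec4a3, Clec4a2, Clec4n, Clec4d and Clec4e follow each other in this order over 368 kb, from 122921848 to 123289870. Clec12a and Clec7a lie 96.3 kb apart, from 129342691 to 129365303 and from 129461591 to 129472779, and Clec5a lies alone from 40574894 to 40585821. GENCODE M21 classes Clec7a as a polymorphic pseudogene, a class for genes that are intact in some genomes of the species and disrupted in others, and the other 9 genes as protein-coding. Coding sequences of the 3 Clec4a genes were 65.0% to 69.8% identical over the longer sequence of each pair. In windows of 75 bases, 3.24% of the Clec4a2 windows also occurred in transcripts of other genes, of which 89 of 97 matched Clec4a4, and the other 9 genes shared 0 windows. The exons of Card9 overlapped the antisense transcript Gm13562, at a mean of 0.0206 TPM, by 87 bases.

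The bases just before an annotated transcription start are printed for 3 genes that rose (Clec7a, Clec4a3, Clec4a2) and 3 that fell (Clec4d, Clec4e, Clec5a), because neighbouring genes of these clusters moved in opposite directions. They are RefSeq sequences (GRCm38.p6), written 5′ to 3′ on the strand of the gene, and capitals mark the letters GAGGAA or their reverse complement TTCCTC, the core to which the macrophage factor PU.1 binds, and TATAAA.
Clec7a (chr6:129472780-129472904, minus strand): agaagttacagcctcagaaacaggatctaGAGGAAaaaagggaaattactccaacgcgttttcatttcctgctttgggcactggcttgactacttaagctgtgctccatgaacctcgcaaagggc
Clec4a3 (chr6:122952519-122952643, plus strand): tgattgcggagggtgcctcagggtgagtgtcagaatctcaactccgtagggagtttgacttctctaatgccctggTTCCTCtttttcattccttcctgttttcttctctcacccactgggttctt
Clec4a2 (chr6:123122565-123122689, plus strand): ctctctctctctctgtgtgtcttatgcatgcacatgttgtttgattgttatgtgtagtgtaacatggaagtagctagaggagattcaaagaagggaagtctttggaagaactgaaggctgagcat
Clec4d (chr6:123261982-123262106, plus strand): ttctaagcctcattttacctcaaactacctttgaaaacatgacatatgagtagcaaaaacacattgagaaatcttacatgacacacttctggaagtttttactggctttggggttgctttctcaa
Clec4e (chr6:123289872-123289996, minus strand): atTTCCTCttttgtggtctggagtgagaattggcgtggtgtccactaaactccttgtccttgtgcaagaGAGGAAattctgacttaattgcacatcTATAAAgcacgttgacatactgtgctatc
Clec5a (chr6:40585806-40585930, minus strand): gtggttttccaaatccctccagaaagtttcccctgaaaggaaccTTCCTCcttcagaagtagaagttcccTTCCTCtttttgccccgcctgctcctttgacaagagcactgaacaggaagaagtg

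Over the full 250 bases before the start, GAGGAA was found on either strand in 7 of the 9 members with a RefSeq window (Clec7a, Clec4d, Clec4e, Clec4a1, Clec4a3, Clec5a and Clec12a), compared with 25.9% of 27025 genes. Clec4a3 has 2 annotated starts, and the letters were 50 bases before the downstream start, whose window is printed, and in 0 places of the window before the upstream start. The RefSeq starts of Clec4a2 and Clec12a lie inside the GENCODE M21 genes whose TPM is used, which begin at 123106428 and 129342691. The bases before those gene beginnings were not searched. The letters were in windows of genes that rose and of genes that fell. In Clec7a they began 96 bases before the start (90 bases for a second annotated start), in Clec4e 123 and 56 bases, in Clec5a 81 and 55 bases, and in Clec4d 240 bases, outside the printed stretch. TATAAA was found in Clec4e and, outside the printed stretch, in Clec4a2 and Clec5a, compared with 14.3% of genes, and the C/EBP palindrome TTGCGCAA in Clec12a, compared with 0.185%. The AP-1 letters TGACTCA (5.16% of genes) and the NF-κB letters GGACTTTCC (0.333%) were in 0 of the 9. These searches covered both strands, the motifs do not overlap each other, GAGGAA was chosen after the windows had been read, and a match is a description of letters and not of a bound factor. Clec4n had no entry in the table.

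The members moved in opposite directions. In NCOA4-deficient cells Clec7a, Clec4n, Clec4a2, Clec4a3 and, by a smaller amount, Card9 rose, and Clec4d, Clec4e and Clec5a fell. The 4 receptors that rose were all differentially expressed, with fold changes between 1.55 and 2.00, which is 4 of 10 members against 0.861% of all tested genes. At an adjusted p under 0.05, 5 members were higher, against 3.11% of all genes, and 3 were lower, against 2.31%, or 8 of 10 against 5.42% in either direction. Because the members were chosen with earlier results of these data known, these counts describe them and do not test for an excess. For every one of the 10 genes the 3 NCOA4 siRNA values lay on one side of the 3 control values, 7 above and 3 below. Such separation was found in 28.4% of all tested genes, in 16.6% above and in 11.8% below. The median log2 fold change was 0.45 over the members and 0.031 over all genes. In these bulk libraries fewer cells with a transcript and less of it per cell cannot be told apart.

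**Figure D1:**
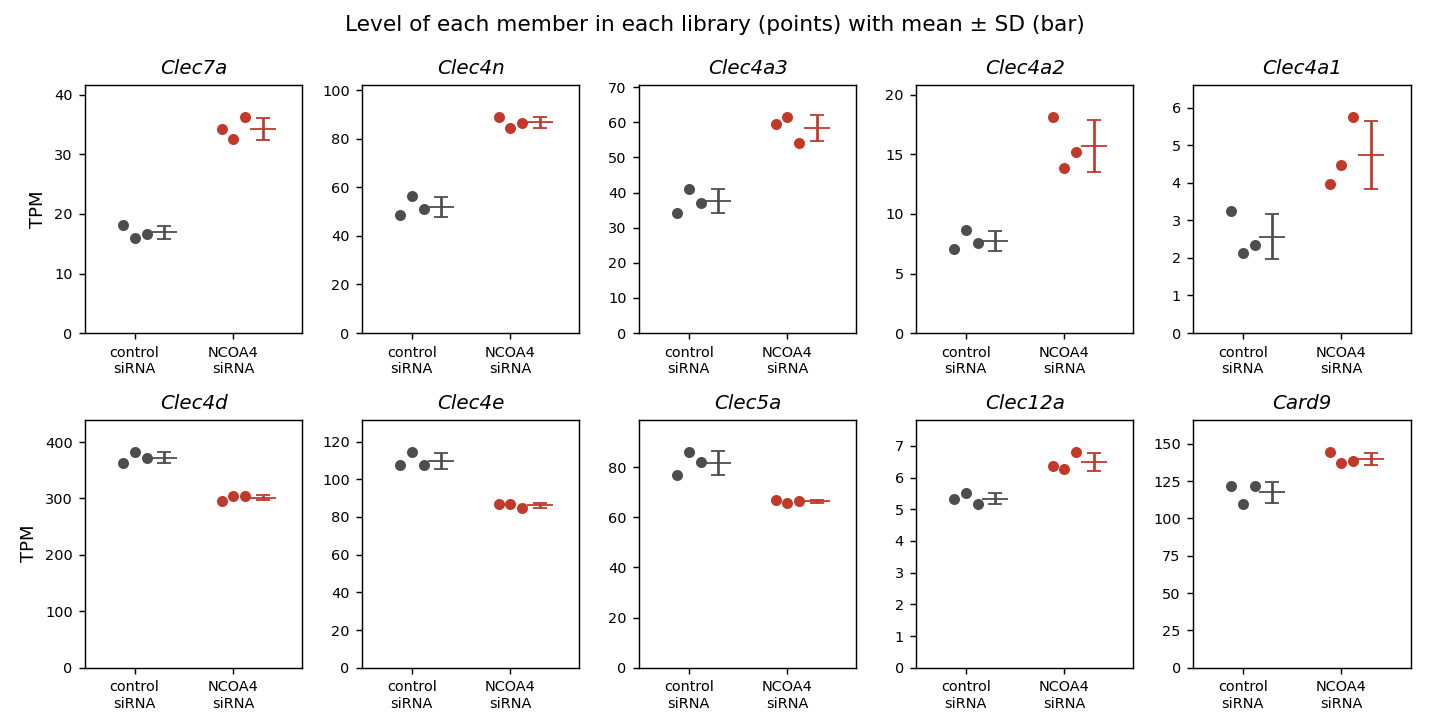
TPM of each of the 10 genes (vertical axes, each starting at 0) in the 3 control siRNA libraries (grey points) and the 3 NCOA4 siRNA libraries (red points), with the mean and SD as a bar beside them. The groups do not overlap in any panel; Clec7a has the highest fold change, from 16.9 to 34.3 TPM.

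Clec7a, the receptor for fungal β-glucan, was at 18.2, 15.9 and 16.7 TPM with control siRNA and at 34.2, 32.6 and 36.2 TPM with NCOA4 siRNA, in the order of the replicates. Behind them stand 229 to 275 reads per control library and 468 to 577 reads per NCOA4 siRNA library. The lowest NCOA4 siRNA library was well above the highest control library, and spread within either group was small. The mean rose from 16.9 ± 1.13 to 34.3 ± 1.85 TPM (n = 3 each, SD), or 1.00 ± 0.0677 on the log2 scale (standard error) at a limma adjusted p of 0.00135. An exact two-sided permutation test gave p = 0.1, the smallest that 3 libraries against 3 allow, and the same value holds for each of the 10 genes. Among tested genes the level of Clec7a moved from percentile 50.6 to percentile 67.2.

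Clec4n, dectin-2, a receptor for fungal mannans, was at 48.4, 56.5 and 50.9 TPM with control siRNA and at 88.9, 84.7 and 86.7 TPM with NCOA4 siRNA. All NCOA4 siRNA libraries were close to each other and above all controls. The mean rose from 51.9 ± 4.11 to 86.8 ± 2.11 TPM (n = 3 each, SD), or 0.74 ± 0.0619 on the log2 scale (standard error) at a limma adjusted p of 0.00234. Clec7a and Clec4n were differentially expressed in all 15 alternative settings, with log2 fold changes of 0.94 to 1.05 and of 0.68 to 0.80.

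Clec4a2, the inhibitory receptor DCIR, was at 7.02, 8.63 and 7.54 TPM with control siRNA and at 18.1, 13.9 and 15.2 TPM with NCOA4 siRNA. The NCOA4 siRNA libraries were more spread than the controls, and the lowest of them stood above every control. The mean rose from 7.73 ± 0.819 to 15.7 ± 2.18 TPM (n = 3 each, SD), on 115 to 308 reads per library, or 0.98 ± 0.118 on the log2 scale (standard error) at a limma adjusted p of 0.00815. Reads of up to 3.24% of its windows could also come from its neighbours Clec4a4 and Clec4b1, which were at a mean of 1.03 and 0.447 TPM.

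Clec4a3, a relative of DCIR, was at 34.3, 41.0 and 37.1 TPM with control siRNA and at 59.6, 61.4 and 54.2 TPM with NCOA4 siRNA. No NCOA4 siRNA library reached down to the control range. The mean rose from 37.5 ± 3.40 to 58.4 ± 3.75 TPM (n = 3 each, SD), or 0.63 ± 0.0789 on the log2 scale (standard error) at a limma adjusted p of 0.00885. This fold change of 1.55 was near the threshold, and Clec4a3 was not called after median centring (log2 fold change 0.58), without control siRNA replicate 1 (0.57, adjusted p = 0.0138) or without NCOA4 siRNA replicate 1 or 2 (adjusted p = 0.0599 and 0.0569), within a range of adjusted p of 0.000280 to 0.0599 over the alternatives (limma).

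Clec4a1, the other DCIR relative, was the member with the lowest TPM, at 3.24, 2.12 and 2.34 TPM with control siRNA and at 3.98, 4.48 and 5.74 TPM with NCOA4 siRNA. The groups were separated, but control siRNA replicate 1 came close to NCOA4 siRNA replicate 1. These are 19 to 54 reads per library, and the log2 fold change of 0.77 had a standard error of 0.187 and an adjusted p of 0.0660 (limma), so Clec4a1 did not pass the test. It was differentially expressed without control siRNA replicate 1 (log2 fold change 0.93, adjusted p = 0.0403) and with limma-voom on rebuilt reads (0.89, adjusted p = 0.0412), where 1.58% of all genes were called, and its adjusted p ranged up to 0.196 over the alternatives.

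Clec12a, the inhibitory receptor MICL, was at 5.32, 5.52 and 5.17 TPM with control siRNA and at 6.35, 6.28 and 6.80 TPM with NCOA4 siRNA. The groups did not overlap, but the log2 fold change of 0.26 had a standard error of 0.0793 and did not pass the test (adjusted p = 0.127 from limma). Its adjusted p was above 0.05 in all 15 alternatives.

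Clec4d, which encodes MCL, was the member with the highest TPM in every library, at 363, 382 and 372 TPM with control siRNA and at 296, 305 and 304 TPM with NCOA4 siRNA. Every NCOA4 siRNA library was below every control. The mean fell from 372 ± 9.88 to 301 ± 4.76 TPM (n = 3 each, SD), on 2654 to 3705 reads per library, or -0.30 ± 0.0370 on the log2 scale (standard error) at a limma adjusted p of 0.00827. Clec4e, encoding Mincle, the receptor for the mycobacterial cord factor, was at 107, 114 and 107 TPM with control siRNA and at 87.0, 87.1 and 84.8 TPM with NCOA4 siRNA. Its NCOA4 siRNA libraries lay within a narrow range, below all controls. The mean fell from 110 ± 4.09 to 86.3 ± 1.31 TPM (n = 3 each, SD), or -0.34 ± 0.0413 on the log2 scale (standard error) at a limma adjusted p of 0.00802. Clec5a, encoding MDL-1, was at 76.6, 86.0 and 82.1 TPM with control siRNA and at 66.8, 65.7 and 66.3 TPM with NCOA4 siRNA. Here too the 3 NCOA4 siRNA libraries were nearly equal and below every control. The mean fell from 81.6 ± 4.69 to 66.3 ± 0.543 TPM (n = 3 each, SD), or -0.30 ± 0.050 on the log2 scale (standard error) at a limma adjusted p of 0.0232.

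None of these 3 falls reached 1.5-fold, so 0 members were differentially expressed and lower (limma), while all 3 had an unadjusted p under 0.05 and limma-voom also called 0. The direction was the same in all 15 alternatives. Whether the adjusted p was under 0.05 depended on single libraries and, for Clec5a, on the trend (0.0628 without it). Without NCOA4 siRNA replicate 1, 2 or 3 the adjusted p was 0.0605, 0.0560 and 0.0521 for Clec4d, 0.0510, 0.0542 and 0.0521 for Clec4e, and 0.101, 0.108 and 0.101 for Clec5a, which was also at 0.0707 without control siRNA replicate 3 (limma). Over all alternatives the lowest adjusted p was 0.000533 for Clec4d, 0.000237 for Clec4e and 0.00229 for Clec5a, and the values without 1 NCOA4 siRNA library hold the highest of each.

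Card9, the adaptor behind the activating receptors, was at 121, 110 and 122 TPM with control siRNA and at 144, 137 and 138 TPM with NCOA4 siRNA. All NCOA4 siRNA libraries were above all controls, of which replicate 2 was the lowest. The mean rose from 118 ± 7.0 to 140 ± 3.99 TPM (n = 3 each, SD), or 0.25 ± 0.0530 on the log2 scale (standard error) at a limma adjusted p of 0.0451. The adjusted p was above 0.05 without control siRNA replicate 2 (0.0633) or 3 (0.0741), without NCOA4 siRNA replicate 1 (0.172), 2 (0.143) or 3 (0.142), after median centring (0.119), with quantile normalization (0.0521), without a filter (0.0696) and without a trend (0.105), within a range of 0.00784 to 0.172 over the alternatives.

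**Figure D2:**
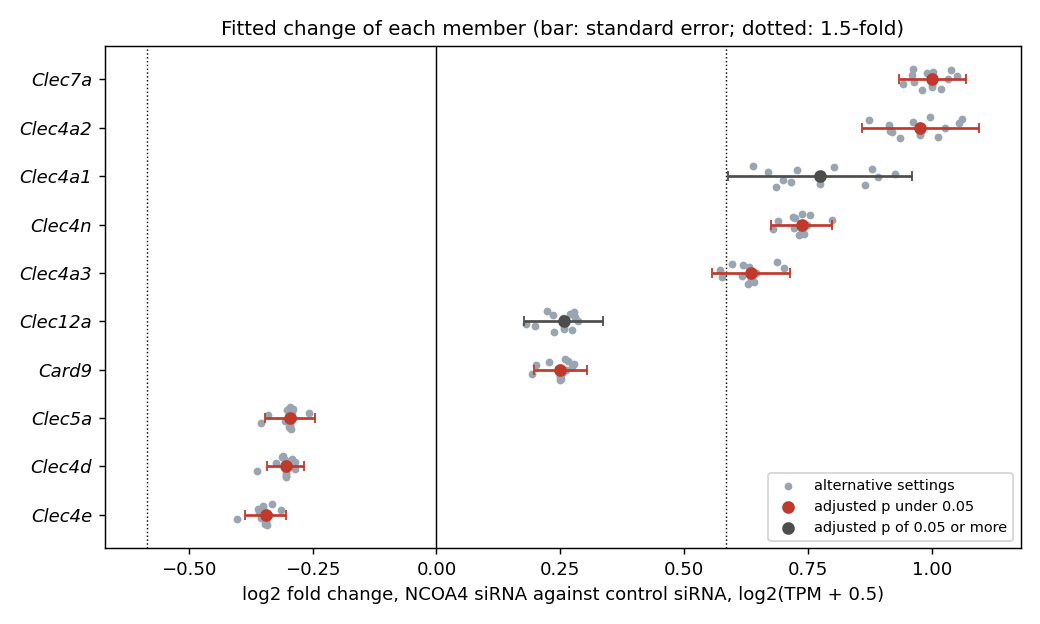
Log2 fold change of each gene (horizontal axis, on log2(TPM + 0.5)), with its standard error as a bar and the values under the alternative settings as grey points; red marks an adjusted p under 0.05 and dotted lines mark 1.5-fold. No gene changes direction under any setting, and Clec4a3 and Clec4a1 have settings near the dotted line.

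The deposited TPM gave whole reads at the joined length of all annotated exons of a gene, whichever transcript was present. The levels of different genes can therefore be set in order only on these lengths, such as 4965 bases for Clec4e and 1599 for Clec4d. With control siRNA the order of mean TPM was Clec4d, Card9, Clec4e, Clec5a, Clec4n, Clec4a3, Clec7a, Clec4a2, Clec12a and Clec4a1, from 372 down to 2.57 TPM. Card9 and Clec4e overlapped, and every other pair of neighbours in that order was separated in all libraries. With NCOA4 siRNA the order was Clec4d, Card9, Clec4n, Clec4e, Clec5a, Clec4a3, Clec7a, Clec4a2, Clec12a and Clec4a1, and Clec4n and Clec4e overlapped at means of 86.8 and 86.3 TPM. On these lengths Clec4n thus moved from the fifth place to the level of Clec4e.

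The summed level of the 9 receptors was 663 to 712 TPM in the control libraries and 660 to 661 TPM in the NCOA4 siRNA libraries. Within this sum the shares changed, and the size of each share rests on the annotated exon lengths of the genes. Clec4d made up 54.3 ± 0.568% in control libraries (SD, n = 3) and 45.6 ± 0.743% after NCOA4 depletion (n = 3), and Clec4e 15.8% to 16.2% and 12.9% to 13.2%. The share of Clec4n was 7.57 ± 0.320% and 13.1 ± 0.318%, that of Clec4a3 5.46 ± 0.297% and 8.84 ± 0.559%, and that of Clec7a 2.47 ± 0.251% and 5.20 ± 0.284% (SD, n = 3 each). The groups did not overlap in any of these shares. Because a ratio within a library does not depend on how libraries are scaled, pairs of receptors that use the same adaptor chain were compared in this way. Clec4n was at 13.4% to 14.8% of the Clec4d level in control libraries and at 27.8% to 30.0% in NCOA4 siRNA libraries (p = 0.1 in an exact permutation test, two-sided, which is the lowest that n = 3 allows). Against Clec4e it was at 45.1% to 49.4% and at 97.2% to 102% (same test, exact p = 0.1). Clec4e was at 28.8% to 29.9% of Clec4d with control siRNA and at 27.9% to 29.4% with NCOA4 siRNA, and here the groups overlapped (exact p = 0.2).

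**Figure D3:**
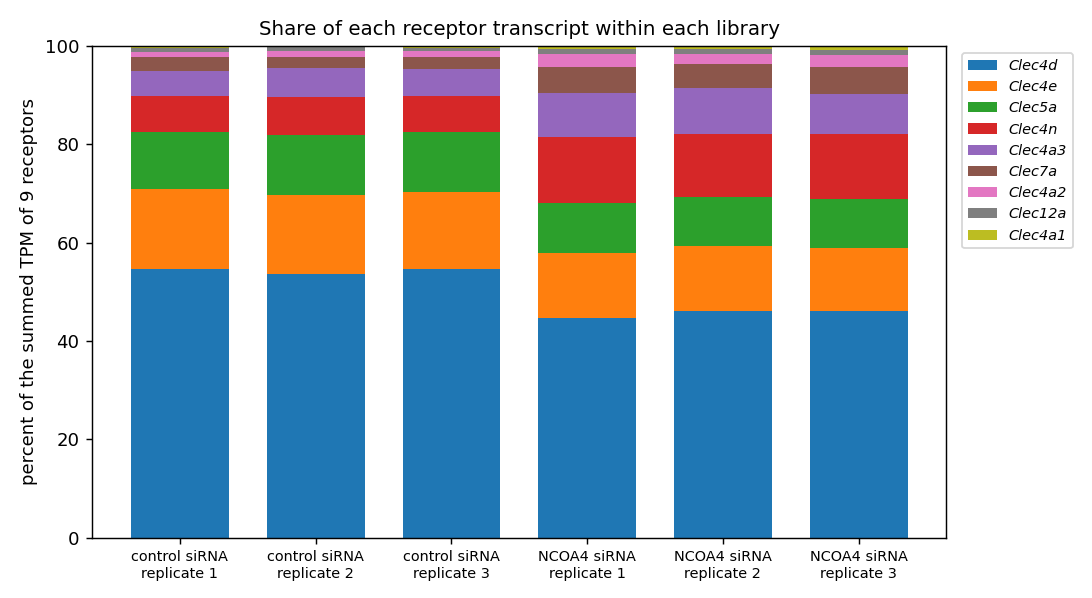
Percent of the summed TPM of the 9 receptors taken by each of them (stacked bars, 0 to 100%) in each of the 6 libraries. The Clec4d part is 53.7% to 54.7% in the 3 control libraries and 44.8% to 46.1% in the 3 NCOA4 siRNA libraries, and the Clec4n part is larger in the latter.

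Along chromosome 6 the direction changed within the Clec4 cluster. The first 4 members in order of position, Clec4a1, Clec4a3, Clec4a2 and Clec4n, had log2 fold changes of 0.77, 0.63, 0.98 and 0.74, and the last 2, Clec4d and Clec4e, of -0.30 and -0.34. The gap between Clec4n, which rose, and Clec4d, which fell, is 15.1 kb. Between Clec4a3 and Clec4a2 lies Clec4a4, an inhibitory DCIR relative, at 0.898, 1.06 and 1.48 TPM with control siRNA and 0.666, 1.42 and 0.641 TPM with NCOA4 siRNA (-0.25 ± 0.285 on the log2 scale, limma adjusted p = 0.656). Of the 40 other coding genes within 250 kb of the members, 10 were expressed at a mean of at least 0.5 TPM, and 0 of these 10 were differentially expressed or had an adjusted p under 0.05 (limma), while 1 higher and 2 lower had an unadjusted p under 0.05 and limma-voom called 0. The smallest adjusted p-values were those of C3ar1, the receptor for complement C3a beside the Clec4 cluster (log2 fold change -0.19, adjusted p = 0.0854), and E330009J07Rik near Clec5a (-0.16, adjusted p = 0.186). That of C3ar1 was 0.0194 after median centring and 0.0257 with limma-voom, in a range up to 0.254 over the alternatives, at a fold change below 1.5 in each.

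**Figure D4:**
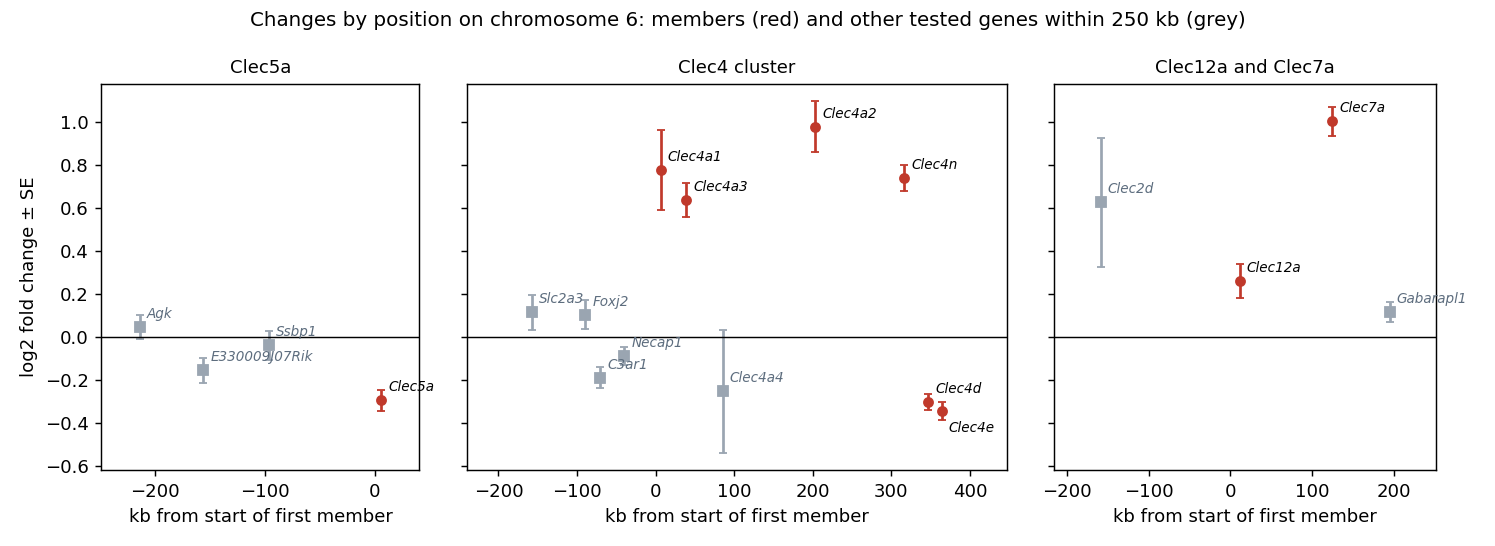
Log2 fold change with its standard error (vertical axis) of members (red circles) and of other tested genes within 250 kb (grey squares) by distance in kb from the start of the first member, for Clec5a, the Clec4 cluster and the Clec12a and Clec7a pair. In the Clec4 cluster the 4 members to the left lie at 0.63 or above and Clec4d and Clec4e lie below 0.

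Downstream of the receptors, a list of 32 signalling genes had 30 tested genes, with a median log2 fold change of 0.075. Of these, 5 rose, against 3.11% of all genes, and 0 fell, with 1 unadjusted p under 0.05 among the lower ones and 0 lower calls by limma-voom. Syk rose from 27.6 ± 1.40 to 32.8 ± 0.309 TPM and Prkcd, which encodes PKCδ, from 93.3 ± 3.03 to 119 ± 4.0 TPM (SD, n = 3 each), with log2 fold changes of 0.25 and 0.34 and adjusted p-values of 0.0439 and 0.00968 (limma). Inpp5d, encoding the inositol phosphatase SHIP1, had a log2 fold change of 0.20 (adjusted p = 0.0434), and Casp8, named after its value was seen, of 0.24 (adjusted p = 0.0264). None of these 4 genes reached 1.5-fold, and whether their adjusted p was under 0.05 depended on the setting. With all 6 libraries kept, the adjusted p of Syk was 0.120 after median centring, 0.0976 with quantile normalization, 0.0607 without a filter and 0.0830 without a trend (limma). That of Inpp5d was 0.0528 after median centring, 0.0562 without a filter and 0.106 without a trend, and that of Casp8 was 0.0751 without a trend. With 1 library left out, the adjusted p was above 0.05 for Syk without any one of the 6 libraries (0.0507 to 0.169), and for Prkcd without NCOA4 siRNA replicate 1 (0.0623) or 3 (0.0562). The same held for Inpp5d without control siRNA replicate 3 (0.106) or any NCOA4 siRNA library (up to 0.170), and for Casp8 without control siRNA replicate 2 (0.0663) or any NCOA4 siRNA library (up to 0.120).

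The adaptor chains and the partners of CARD9 had an adjusted p above 0.05. Fcer1g was at 758, 722 and 778 TPM with control siRNA and 729, 743 and 787 TPM with NCOA4 siRNA (0.0012 ± 0.0482 on the log2 scale, limma adjusted p = 0.993), and the sign of this value changed after median centring. Tyrobp was at 986, 1093 and 1107 TPM and at 1228, 1217 and 1212 TPM, with the groups apart (log2 fold change 0.20, standard error 0.0532, adjusted p = 0.0858). The adjusted p of Tyrobp was 0.0263 without control siRNA replicate 1 and 0.0108 with limma-voom, in a range up to 0.265 over the alternatives. The adaptor Hcst had a log2 fold change of -0.041 (standard error 0.156). Bcl10 and Malt1, the other parts of the CARD9 complex, had values of -0.076 and -0.13 (standard errors 0.0628 and 0.0889), Plcg2, a phospholipase, of -0.091 and Ptpn6, encoding SHP-1, of 0.054, the last of which was below 0 after median centring. Their adjusted p-values ran from 0.217 to 0.906.

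**Figure D5:**
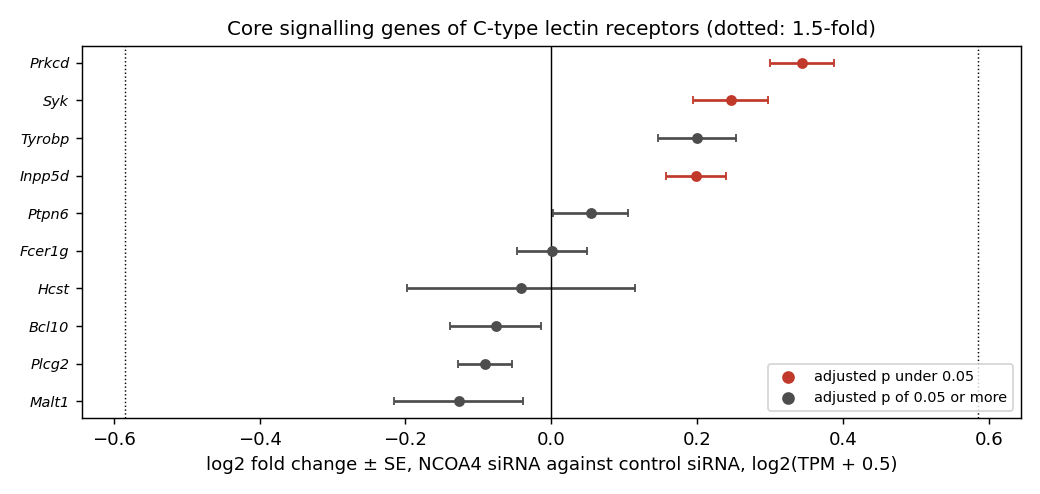
Log2 fold change with its standard error (horizontal axis) of 10 core signalling genes, sorted by value; red marks an adjusted p under 0.05 and dotted lines mark 1.5-fold. The red points are Prkcd, Syk and Inpp5d, between 0.20 and 0.34, and none of the 10 genes lies beyond 1.5-fold.

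Of 24 transcripts that signalling through these receptors can induce, 15 were tested, and the middle value of their log2 fold changes was -0.042. Differentially expressed were the chemokines Ccl3 and Ccl4, both lower, with log2 fold changes of -0.95 and -0.93 (adjusted p = 0.00391 and 0.00127 from limma). Over all tested genes 0.318% were differentially expressed and lower, and 0.861% higher. Il1a, named after its value was seen, was the 1 gene of the list that rose, by 0.49 ± 0.0670 on the log2 scale (limma adjusted p = 0.0121), and its adjusted p was 0.0741 without NCOA4 siRNA replicate 1 and 0.0618 without replicate 3, within a range of 0.00162 to 0.0741. Il6, Il12b and Csf2 were under 0.5 TPM on average and were not tested. Of 40 other C-type lectin genes 13 were tested (median log2 fold change 0.079), and 1 was differentially expressed and higher, against 0.861% of all genes. This was Mrc1, the macrophage mannose receptor, at 88.6, 97.0 and 89.8 TPM with control siRNA and 167, 168 and 165 TPM with NCOA4 siRNA (0.86 ± 0.0449 on the log2 scale, limma adjusted p = 0.00118). Mrc1 was called in all 15 alternatives, and the other 12 genes, including Clec10a and Mgl2, had an adjusted p above 0.05.

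Among 20 transcription factors and cytokine receptors known to set the levels of myeloid lectins, 19 were tested, 5 rose, against 3.11% of all genes, and 1 fell, against 2.31%. Maf, a transcription factor of macrophages, rose from 36.1 ± 0.112 to 57.9 ± 2.05 TPM and Il4ra, the IL4 receptor chain, from 9.74 ± 1.47 to 16.2 ± 0.737 TPM (SD, n = 3 each), with log2 fold changes of 0.67 and 0.71 and adjusted p-values of 0.00127 and 0.0167 (limma). Both were differentially expressed and higher, against 0.861% of all genes. Il4ra was not called without NCOA4 siRNA replicate 1, 2 or 3 (adjusted p = 0.0757, 0.0862 and 0.0815, in a range of 0.000155 to 0.0862 over the alternatives). The median log2 fold change of the list was 0.087. Macrophage markers moved with the receptors that rose. Of the 10 markers, Adgre1 and Fcgr1 were differentially expressed and higher (log2 fold changes 0.61 and 0.59), against 0.861% of all genes. In all, 4 markers rose, against 3.11% of all genes, and Cd14 fell (log2 fold change -0.27, adjusted p = 0.0361 from limma), against 2.31%. The summed level of the list was 9947 to 10180 TPM with control siRNA and 10388 to 10484 TPM with NCOA4 siRNA. After median centring Adgre1 and Fcgr1 were both below 1.5-fold (0.55 and 0.54), and Adgre1 was also not called without a filter (adjusted p = 0.0508 from limma) or without a trend (0.0657). Without control siRNA replicate 1 both were below 1.5-fold (0.48 and 0.53), and the call was lost for Adgre1 also without NCOA4 siRNA replicate 1, 2 or 3 (adjusted p = 0.114, 0.0955 and 0.105). The summed dendritic cell markers were at 13.5 to 16.9 TPM with control siRNA and 15.4 to 15.8 TPM with NCOA4 siRNA, and the neutrophil markers, with Ly6g and Mpo at 0, at 19.0 to 25.4 and 15.6 to 20.6 TPM. The part of these markers in the lectin results was not tested.

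Among the 5 coding genes whose profile over the 6 libraries was nearest to that of Clec7a, out of 9047 with a mean of at least 5 TPM, were Serpinb8, Hacd4, Cd33 and Ccl24. The measure was the root mean square difference of centred log2(TPM + 0.5), and it was 0.0724, 0.109, 0.119 and 0.123, respectively. Cd33, a sialic acid binding receptor of myeloid cells, was at 33.7, 36.8 and 34.7 TPM with control siRNA and at 71.7, 71.5 and 66.2 TPM with NCOA4 siRNA. With 2 groups of 3 libraries, this likeness is mostly that of the change between the groups.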

How the data were processed

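RNA-seq of 6 J774 libraries (control siRNA and NCOA4 siRNA, 3 each, grouped by their labels) was analysed. The authors deposited TPM per Ensembl gene and library, summing to 1000000 in each, with no scaling between libraries. The submitters' processing notes name Trimmomatic 0.33, FastQC, HISAT2 2.1.0, featureCounts, edgeR and mm10; settings, strand option and annotation are not given in the sources used here.

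Symbols, positions and exon lengths came from GENCODE M21 (GRCm38), which named 55227 of 55487 identifiers. Multiplied by these lengths, the values of 98.5% of the 21096 genes above 0 were whole reads in all libraries (within 0.02 reads). Another 266 genes had a length fitted to give whole reads, and 60 had none. Intervals from such reads would cover counting error only.

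Genes with a mean of at least 0.5 TPM were tested across all 13829 genes with limma 3.58.1 in R 4.3.3, taking log2(TPM + 0.5), by lmFit and trended eBayes with no block and Benjamini-Hochberg adjustment, so changes of low genes are understated. Single values were also tested with an exact two-sided permutation test over the 20 arrangements. The script was checked on simulated data. In 15 alternatives the pseudocount was 1 or 0.1, low genes were kept or a mean of at least 5 TPM was required, values were median centred or quantile normalized, the trend was dropped, limma-voom was run on rebuilt reads, the replicate number was a block, or 1 of the 6 libraries was omitted. Sequences were searched with Python 3.11.15.

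The members and lists were chosen with earlier results of these data known. Genes named are Ncoa4, the members, 10 core signalling genes, up to 5 differentially expressed genes of each list (the 2 with the smallest adjusted p where there were none), and the 5 nearest to Clec7a. Some genes that this rule selects are left out.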

Additional observations from a re-analysis of the deposited data

How the results depend on the processing

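Under 15 alternatives the 10 members and Ncoa4 kept their direction, and Ncoa4, Clec7a and Clec4n also their call. The number of members called was 4, with 3 after median centring, with the replicate block and without NCOA4 siRNA replicate 1 or 2, and 5 with limma-voom. Clec4a3 was not called after median centring (log2 fold change 0.58), and Clec4a1 was called with limma-voom (0.89). Omitting 1 library at a time, values on the log2 scale lay between 0.57 and 0.70 for Clec4a3, between 0.64 and 0.93 for Clec4a1 and between 0.87 and 1.06 for Clec4a2.

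The labels do not say whether libraries of the same replicate number were handled together. Between libraries of the same number, the correlation of deviations from the group means was 0.0283, -0.0185 and 0.0229. Not every library correlated best with its own number. These values show no shared effect of the number, but with 3 libraries per group they cannot settle whether the libraries were paired. With the replicate number as a block, Clec4a2 kept a log2 fold change of 0.98 at an adjusted p of 0.0532 (limma) and was not called, 87 genes were called in place of 163 (61 higher and 26 lower), and 0 genes of the signalling list in place of 1. Card9, Clec4d and Clec5a then had an adjusted p of 0.0902, 0.0515 and 0.0873.

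With single libraries left out, the number of called genes was 77 to 172, that of the signalling list 0 to 1, and that of the regulator list 1 to 2. limma-voom called 218 genes. Signs were reversed for Fcer1g (-0.0567 after median centring, and -0.0311 to 0.0259 with 1 library omitted, below 0 without control siRNA replicate 2 or NCOA4 siRNA replicate 3), for Hcst (-0.146 to 0.0975 with 1 library omitted, above 0 without control siRNA replicate 3 or NCOA4 siRNA replicate 3) and for Ptpn6 (-0.0041 after median centring). With a mean of at least 5 TPM, Clec4a1 was not among the tested genes. The cause of these differences was not tested. Clec4a1 rests on 19 to 54 reads per library.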
